A study of Mus musculus with 16 samples.

Results

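The genes described here encode the subunits of integrins and the chains of laminins. They were taken by name: every gene of the table whose symbol is Itga, Itgb, Lama, Lamb or Lamc followed by its subunit number, with Itga2b and Itgav included. This gave 32 of 20841 genes, of which 13 encode integrin alpha subunits, 8 integrin beta subunits and 11 laminin chains. The symbols of the leukocyte alpha subunits (Itgal, Itgam, Itgax and Itgae) carry no subunit number and were not among them. Itgb6 and Itgb7 stayed under 1 CPM (each gene's reads scaled to a common library total) in all 16 libraries and are only counted. The other 30 genes reached 1 CPM in at least 1 library, and 24 did so in all 16.

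The libraries were made from polyA RNA of the right cortex of newborn mice (postnatal day 0, P0) and of mice at postnatal day 7 (P7). Each age had 4 control libraries and 4 libraries of a forebrain conditional knockout (cKO) of Foxp1, the gene of a forkhead transcription factor. The sources used here do not give the Cre driver, the alleles, the strain or the genotype of the controls beyond the word control. Nor do they say that the 4 libraries of a group came from separate animals, so the p-values measure the spread between these libraries. Reads came from a BGISEQ-500 at P0 and from a NextSeq 500 at P7, so age and platform cannot be told apart.

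Integrins are receptors made of 1 alpha and 1 beta subunit that span the cell membrane and tie the extracellular matrix to the cytoskeleton. Laminins are secreted trimers of an alpha, a beta and a gamma chain, and they form the sheet of the basement membrane to which several integrins bind. In the developing mouse cortex, laminins line the pial surface and the vessels, and integrins of radial glia anchor the glial endfeet at that surface.

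Libraries held 17957490 to 18232943 reads at P0 and 9858296 to 15335738 at P7, and 0 reads in a library allow up to 0.167 CPM at P0 and up to 0.304 CPM at P7, for counting error only. Foxp1 itself stood at 326 ± 38.3 CPM in control and 161 ± 21.3 CPM in cKO at P0 (SD, n = 4 each), and at 444 ± 73.3 and 217 ± 38.4 CPM at P7. Transcripts of excitatory neurons, the labelled tissue's main neurons, were present in every library, with 5 markers summing to 1005 CPM or more. At P0 the first principal component, with 46.5% of the variance, set controls 2 and 6 (scores of -38.1 and -19.5) apart from the other 6 libraries (0.443 to 17.9). The P0 differences that moved most without these 2 libraries are also given without them. At P7 the first component, with 25.7% of the variance, separated the genotypes.

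At P7, Itgb3 and Itgb4 fell to less than 50% of their control level. Itgb8 was slightly higher by limma alone, which called 3 of 5 beta subunit genes tested where edgeR and DESeq2 each called 2. Of 12 alpha subunit and 11 laminin genes tested, limma, edgeR and DESeq2 each called 0, with 2 and 1 at an unadjusted limma p under 0.05. The test was limma on log2(CPM + 1), with a Benjamini-Hochberg adjusted p under 0.05, over the genes that reached 1 CPM in 4 or more of the 8 libraries of an age. It took in 28 of the 32 genes at P7, all but Itga2b, Itgb2, Itgb6 and Itgb7. With 3 of 28 called, these genes stand beside 477 of 12828 genes tested, a background of 3.72%. Called higher were 1.67% of all genes and called lower 2.05%, and 14.3% had an unadjusted p under 0.05, as did 6 of the 28.

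Itgb3 encodes the beta 3 subunit, which pairs with alpha V to bind RGD ligands such as vitronectin and with alpha IIb on platelets to bind fibrinogen. The gene lies on the plus strand at chr11:104608000-104670476 (GRCm38). Controls 43, 45, 46 and 47 held 10.6, 10.8, 11.2 and 9.06 CPM, whereas the cKO libraries (41, 42, 44 and 48) had only 4.83, 4.79, 3.90 and 3.96 CPM. The groups did not overlap, and the lowest control stood well above the highest cKO library. The mean fell from 10.4 ± 0.928 to 4.37 ± 0.506 CPM (SD, n = 4 each), to 42% of control. On the log2(CPM + 1) scale the difference was -1.09 (SE 0.12, limma adjusted p = 8.05e-05), with an exact two-sided permutation p of 0.0286, the smallest that 4 against 4 libraries can give. These levels rest on 127 to 158 reads per control and 39 to 74 reads per cKO library.

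Itgb4 encodes the beta 4 subunit, which pairs with alpha 6 as a laminin receptor and is the integrin of epithelial hemidesmosomes. It lies on the plus strand at chr11:115974709-116008412 (GRCm38). In the same order, the controls had 3.58, 3.01, 2.92 and 4.77 CPM and the cKO libraries 2.02, 1.43, 1.38 and 1.42 CPM. Again every cKO library was under every control. The mean fell from 3.57 ± 0.855 to 1.56 ± 0.306 CPM, to 43.8% of control (-0.82 log2, SE 0.16, limma adjusted p = 0.00786; exact permutation p = 0.0286). With 36 to 69 reads per control and 14 to 31 per cKO library, Itgb4 had few reads. The antisense gene B230344G16Rik overlaps 7.66% of its exon bases, and whether the reads were counted by strand is not given in the sources used here.

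Itgb8 encodes the beta 8 subunit, whose pair with alpha V on mouse radial glia and astrocytes activates latent TGF-beta. It lies on the minus strand at chr12:119158022-119238802 (GRCm38). In the same order, the controls had 143, 129.7, 131 and 136 CPM and the cKO libraries 154, 149, 165 and 152 CPM. The groups did not overlap, though the gap between them was small. The mean rose from 135 ± 5.99 to 155 ± 7.00 CPM, a ratio of 1.15 (0.20 log2, SE 0.05, limma adjusted p = 0.0497; exact permutation p = 0.0286). This call stood at the threshold and was lost in 14 of 16 alternative settings, and over the 16 the adjusted p ran from 0.0437 to 0.800.

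**Figure D1:**
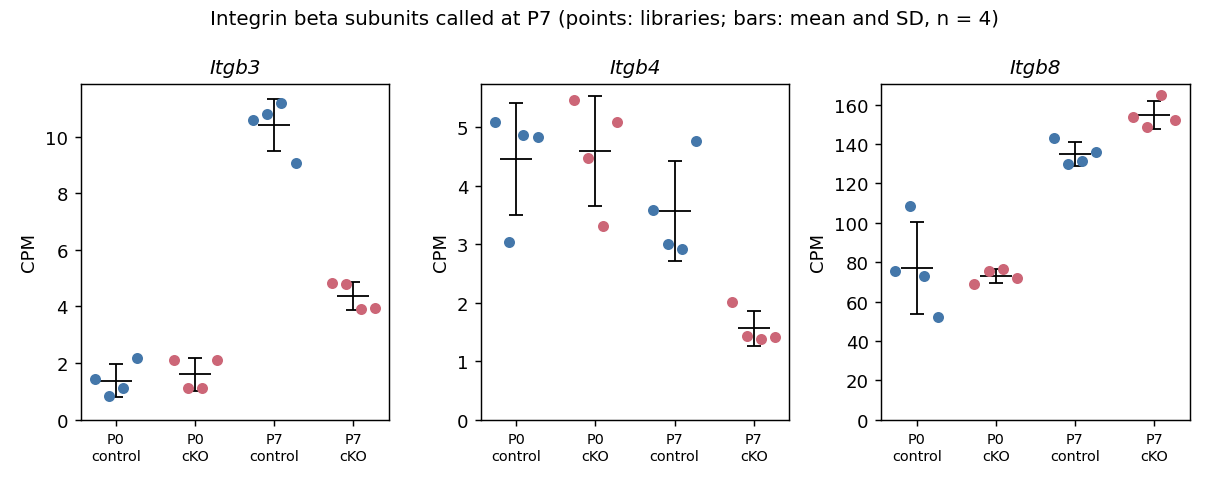
CPM of Itgb3, Itgb4 and Itgb8 in every library of the 4 groups, with 1 point per library and the mean and SD of each group. At P7 the Itgb3 controls sit between 9.06 and 11.2 CPM and the cKO libraries between 3.90 and 4.83 CPM, while the P0 groups overlap for all 3 genes.

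The 25 other genes tested at P7 did not pass. Groups did not overlap for 5 of 28 genes (17.9%, against 8.88% of all genes tested, 5.11% higher and 3.77% lower), which were the 3 called genes with Itga8 and Lamb1. Itga8, whose product pairs with beta 1 and binds RGD ligands such as nephronectin, had means of 30.4 CPM in control and 37.2 CPM in cKO (0.28 log2, SE 0.08, limma adjusted p = 0.0905). Lamb1, the main laminin beta chain gene here, had means of 41.5 and 48.5 CPM (0.22 log2, limma adjusted p = 0.129) and was called only when cKO library 44 was left out (adjusted p = 0.0217).

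Itgav encodes alpha V, which pairs with beta 3, beta 5, beta 6 and beta 8 and also with beta 1. Its level at P7 was 84.5, 80.5, 75.2 and 78.1 CPM in the controls and 79.7, 68.4, 70.9 and 63.4 CPM in the cKO libraries, in the same order. The groups overlapped, and the difference of -0.17 log2 did not pass (limma adjusted p = 0.247). Itgb5, the other alpha V partner with a sizeable level, had means of 8.60 and 8.59 CPM.

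Itgb1 encodes beta 1, the common partner of most alpha subunits. Its level at P7 was 216, 209.6, 204 and 211 CPM in the controls and 201, 194, 210.3 and 216 CPM in the cKO libraries. These ranges overlapped almost fully (-0.04 log2, limma adjusted p = 0.815). Over the 28 genes tested at P7 the median difference was 0.07 log2, against 0.03 over all genes tested, with 15 positive and 13 negative.

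**Figure D2:**
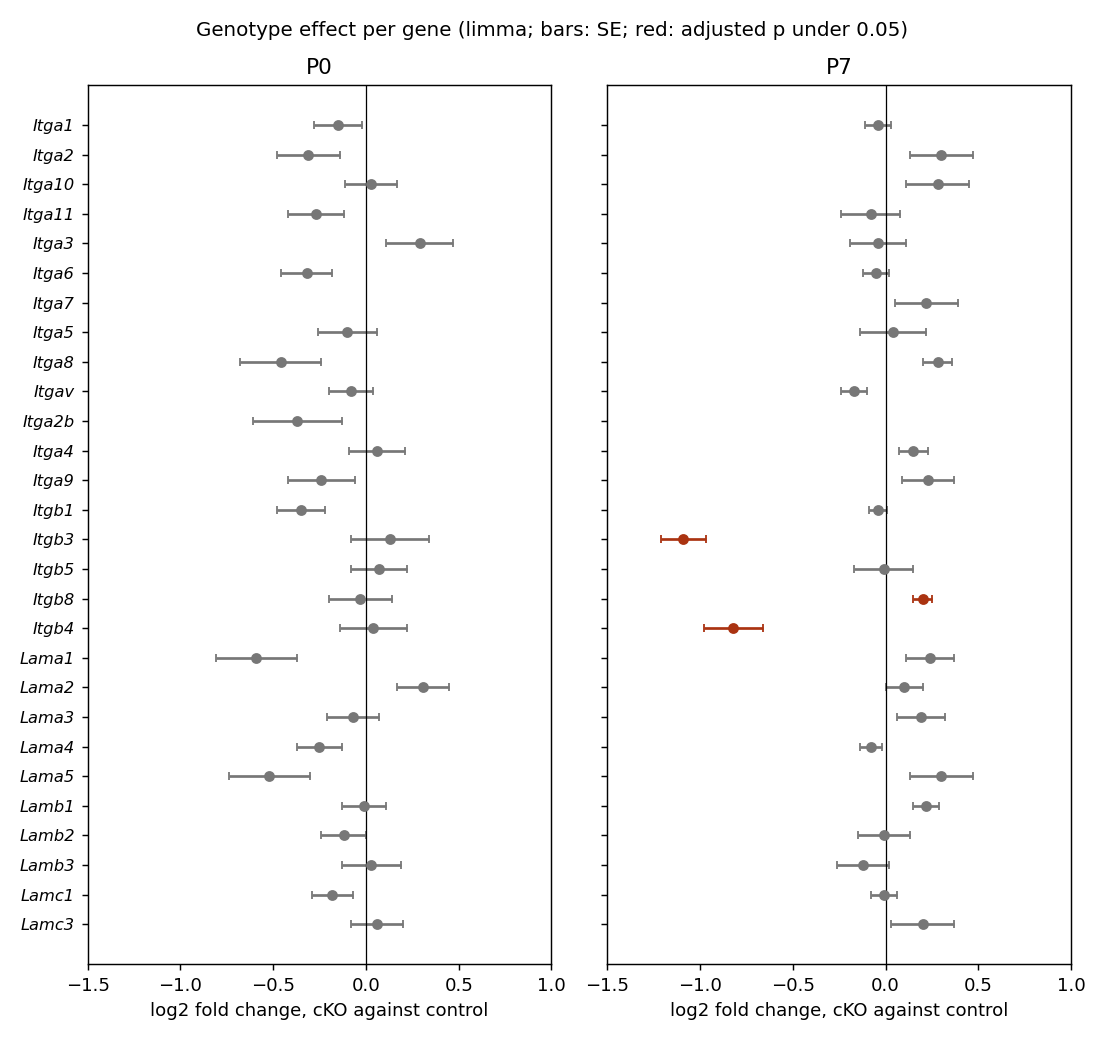
log2 difference of cKO minus control for the integrin and laminin genes reported, at P0 and at P7, on the log2(CPM + 1) scale with bars for the SE and called genes in red. Itgb3 (-1.09) and Itgb4 (-0.82) stand apart at P7, where the other values run up to 0.30.

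In bulk RNA, fewer cells of a type and less RNA per cell cannot be told apart. The summed level of 7 endothelial markers ran from 211.6 to 227.3 CPM in P7 controls and from 206 to 222.2 CPM in cKO, with 0 of 7 called by limma. Mural cell markers ran from 329.5 to 341 and from 321.4 to 349.1 CPM, with 0 of 6 tested called. Meningeal fibroblast markers ran from 185.8 to 268.1 and from 207.2 to 268.8 CPM, with 1 of 6 called lower, and microglial markers from 69.96 to 80.68 and from 65.73 to 80.2 CPM. These ranges overlapped between genotypes. The 5 astrocyte markers were lower in sum, from 2646 to 2948 CPM in controls and from 2239 to 2619 CPM in cKO. The ranges did not overlap, and limma called 1 of the 5 markers lower. Their means did not all fall. Slc1a2 went from 2120 to 1762 CPM and Aqp4 from 368.9 to 328.8 CPM, while Gfap, Aldh1l1 and Gja1 were higher in cKO. The median difference of these markers was 0.09 log2. The 5 radial glia markers were higher in sum, from 1074 to 1108 CPM in controls and from 1144 to 1209 CPM in cKO, with no overlap, though limma called 0 of the 4 tested. Striatal neuron markers summed to 291.8 CPM in control 43, to 112.7 to 121.9 CPM in the other controls and to 132.3 to 237.2 CPM in cKO. Their median difference was 0.50 log2, with 0 of 6 called. The part of astrocytes, radial glia and striatal neurons in the Itgb3, Itgb4 and Itgb8 results was not tested. The 5 platelet markers summed to 0.567 to 1.384 CPM in controls and 1.092 to 2.942 CPM in cKO, and Ppbp, Gp9, Gp1ba and Gp6 were at 0 in all P7 controls.

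Among the beta subunits other than beta 1 that pair with alpha V, Itgb3 made up a smaller part in P7 cKO than in P7 control. These shares follow from the levels above and were given no test. On a scale of CPM per kb of exon, Itgb3 made up 10.7% of the summed Itgb3, Itgb5, Itgb6 and Itgb8 level in P7 controls (9.35 to 11.5% over the 4 libraries) and 4.32% in cKO (3.63 to 4.76%). Itgb8 made up 74.4% in control and 81.6% in cKO, and Itgb5 14.8% and 14.0%. At P0 the share of Itgb3 was 2.15% in control and 2.37% in cKO. Over all 8 beta subunits, Itgb1 included, Itgb3 made up 2.56% in P7 control and 1.09% in P7 cKO.

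At P0 no integrin or laminin gene was called among the 28 tested (all but Itga7, Itgb2, Itgb6 and Itgb7), and limma, edgeR and DESeq2 each gave 0. At an unadjusted limma p under 0.05 there were 5 (Itga6, Itgb1, Lama1, Lama2 and Lama5), where 18.1% of all genes tested had such a p. Among all genes 32 of 12580 were called, or 0.254% (0.183% higher and 0.0715% lower). The median difference over the 28 genes was -0.09 log2, against 0.01 over all genes, with 9 positive and 19 negative values.

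Groups did not overlap at P0 for 4 of 28 genes, Itga2, Itga11, Itgb1 and Lama4, each lower in cKO (14.3%, against 9.86% of all genes in either direction, 5.37% higher and 4.50% lower). Itgb1 held 148, 232, 165 and 149.8 CPM in controls 1, 2, 5 and 6, against 119, 133, 141 and 142 CPM in the cKO group (3, 4, 7 and 8). Control 2 stood far above the rest, and the other 3 controls stood closer to the cKO libraries. The difference was -0.35 log2 (limma adjusted p = 0.208; exact permutation p = 0.0286), and -0.23 log2 without controls 2 and 6 (limma adjusted p = 0.277). Lama4, which encodes the alpha 4 chain of vascular basement membranes, held 29.5, 31.6, 29.8 and 30.6 CPM in control and 26.3, 20.7, 27.6 and 27.9 CPM in cKO (-0.25 log2, limma adjusted p = 0.298). Without controls 2 and 6 the differences of Itga2, Itga11 and Lama4 went from -0.31 to -0.17, from -0.27 to -0.25 and from -0.25 to -0.21 log2.

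Several of the larger P0 differences followed controls 2 and 6. Itga8 held 7.90, 14.1, 6.96 and 15.7 CPM in controls 1, 2, 5 and 6. Lama1, the alpha chain gene of the early pial basement membrane, held 8.67, 14.1, 6.36 and 13.6 CPM there. Lama5, the alpha 5 chain gene of mature basement membranes, held 11.4, 14.9, 6.80 and 12.6 CPM. In Itga8 and Lama1, controls 2 and 6 stood above all other P0 libraries, and in Lama5 both stood above controls 1 and 5.

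With both libraries left out, the difference went from -0.46 to -0.00 log2 for Itga8, from -0.59 to -0.18 for Lama1 and from -0.52 to -0.22 for Lama5. Itga2b, which encodes the platelet subunit alpha IIb, held 3.07, 5.70, 3.09 and 7.68 CPM in controls 1, 2, 5 and 6, and its difference went from -0.37 to 0.08. The lowest limma adjusted p over the 28 tested genes was then 0.277. Rounded values were positive for 7 and negative for 20, with Itga8, at -0.00, in neither count. Summed platelet markers in controls 1, 2, 5 and 6 were 2.85, 6.09, 4.09 and 4.23 CPM, meningeal markers 11, 10.3, 8.95 and 13.1 CPM and striatal markers 105, 87.6, 132 and 149 CPM. The platelet sum was almost all Gp1ba, with a P0 control mean of 4.205 CPM. Pf4, Ppbp, Gp9 and Gp6 had P0 control means of 0.0417 CPM or less. The part of platelets, meningeal cells and striatal neurons in the spread among the P0 controls was not tested.

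**Figure D3:**
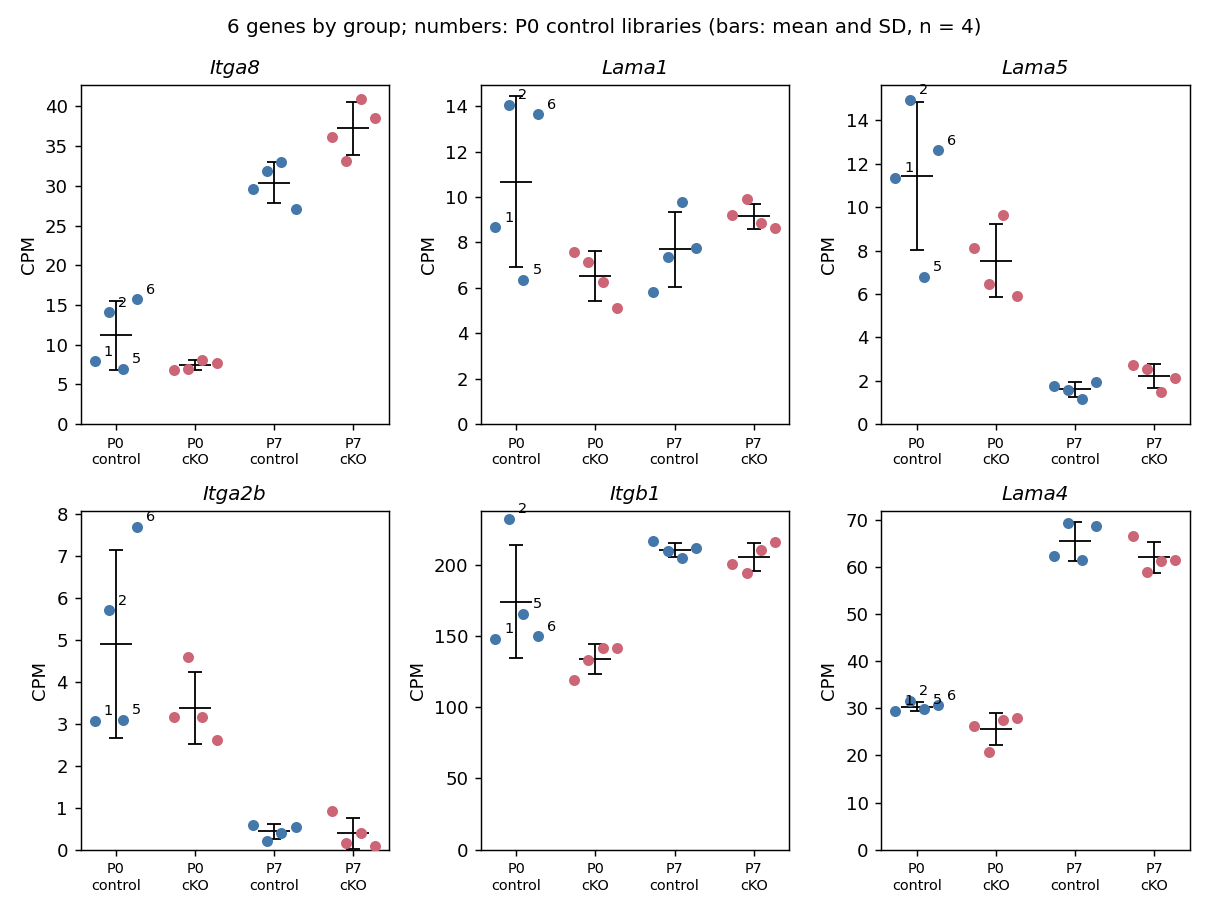
CPM of Itga8, Lama1, Lama5, Itga2b, Itgb1 and Lama4 in the 4 groups, with 1 point per library, bars for the mean and SD (n = 4), and the P0 control libraries numbered. Itga8 reaches 14.1 and 15.7 CPM in controls 2 and 6 and stays at 8.08 CPM or less in the other 6 P0 libraries.

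The 3 beta subunit genes called at P7 were not called at P0. Itgb3 held 1.43, 0.831, 1.11 and 2.17 CPM in controls 1, 2, 5 and 6, and the cKO group (3, 4, 7 and 8) had 2.10, 1.11, 1.11 and 2.10 CPM (0.13 log2, SE 0.21, limma adjusted p = 0.751). Itgb4 held 5.10, 3.05, 4.86 and 4.84 CPM in control and 5.47, 4.48, 3.32 and 5.09 CPM in cKO (0.04 log2, limma adjusted p = 0.931, and -0.11 without controls 2 and 6). Itgb8 held 75.3, 108, 72.9 and 52.1 CPM in control and 68.8, 75.3, 76.8 and 72.0 CPM in cKO. In all 3 genes the groups overlapped.

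Whether the genotype effect itself differed between P7 and P0 was tested as an interaction in 1 fit over all 16 libraries, with 29 of the 32 genes tested. The sequencing platform cancels in this test only where it acts the same way on both genotypes. Itgb3 passed, with an effect 1.22 log2 units lower at P7 than at P0 (-1.22, SE 0.24, limma adjusted p = 0.0185), 1 of 29 genes where 101 of 13444 (0.751%, with 0.305% higher and 0.446% lower) passed in all. The call was lost in 5 of 23 alternatives, with edgeR on recovered reads (adjusted p = 0.0541), a pseudocount of 0.1 (0.0796), no filter on low values (0.0520), without P0 cKO library 3 (0.0569) and without P7 control 46 (0.0528). Without P0 controls 2 and 6 the value was -1.27 log2 (limma adjusted p = 0.00906). The P0 side of this test rests on few reads, 15 to 39 of Itgb3 per library.

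Itgb4 had an interaction of -0.86 log2 that did not pass (limma adjusted p = 0.0980), and it passed in DESeq2 alone (adjusted p = 0.0311). Itga8 (0.75 log2, adjusted p = 0.174), Lama1 (0.83, 0.163) and Lama5 (0.81, 0.181) were above 0 in limma without passing. They passed only when P0 control 5 was left out, and without P0 controls 2 and 6 their values were 0.29, 0.42 and 0.52 log2. The median interaction over the 29 genes was 0.19 log2, against 0.02 over all genes.

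Of the other genes of the pathway, 3 ligand and 2 basement membrane genes were called at P7. The lists were chosen with earlier results of these data known, so their counts beside all genes are no test of the lists. Of 28 listed cytoplasmic adaptors and kinases of integrins, 27 were tested at P7, where limma, edgeR and DESeq2 each called 0, with 2 at an unadjusted limma p under 0.05. In the interaction the 3 tools also called 0 of 27, with 4 at an unadjusted p under 0.05. Among 23 other integrin ligand genes, 3 of 20 tested were called higher at P7, beside 1.67% of all genes. Spp1, which encodes osteopontin, an RGD ligand, rose from 20.01 ± 2.62 to 41.8 ± 10.9 CPM (1.0 log2, SE 0.14, limma adjusted p = 0.000584). Tnc, which encodes tenascin-C, a ligand of alpha 9 and alpha V integrins, rose from 219.5 ± 6.38 to 288 ± 12.1 CPM (0.39 log2, SE 0.05, limma adjusted p = 0.000165).

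Tnr, which encodes tenascin-R of perineuronal matrix, rose from 454.8 ± 22.9 to 523.6 ± 20.4 CPM (0.20 log2, limma adjusted p = 0.0271), a call lost in 8 of 16 alternatives. Among 31 other basement membrane and laminin receptor genes of the table, 2 of 29 tested were called lower at P7, beside 2.05% of all genes. Col4a4, a chain of the alpha 3, 4, 5 network of collagen IV, fell from 9.0 ± 0.637 to 4.67 ± 0.456 CPM (-0.82 log2, SE 0.12, limma adjusted p = 0.000661). Its head-to-head neighbour Col4a3 fell from 2.83 ± 0.838 to 1.14 ± 0.521 CPM (-0.84 log2, limma adjusted p = 0.0308), a call lost in 7 of 15 alternatives. Col4a4 also had an interaction of -0.97 log2 (SE 0.16, limma adjusted p = 0.00665), the only 1 of these 29 called, beside 0.751% of all genes. At P0 limma and edgeR called 0 genes of these 3 lists. At an unadjusted limma p under 0.05 there were 3 of 26 adaptors and kinases, 5 of 18 ligands and 5 of 28 basement membrane genes, beside 18.1% of all genes. DESeq2 called 2, 1 and 1 of them, beside 429 of 12580 genes in all.

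In control cortex the levels of the subunits differed widely, and the order was read on the scale of CPM per kb of exon. Itgb1 stood highest, at 42.6 CPM per kb in P0 controls and 51.5 in P7 controls. It made up 77.0% of the summed beta subunit level at P0 and 74.9% at P7. Among the other beta subunits, Itgb8 stood at 6.98 and 12.2 CPM per kb, Itgb5 at 4.31 and 2.42, Itgb3 at 0.234 and 1.76, and Itgb4 at 0.636 and 0.509. Itgb2, the beta subunit gene of leukocytes, stood at 0.249 and 0.287 CPM per kb.

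Among the alpha subunit genes, Itga6 (a laminin-binding subunit) stood at 5.39 and 5.24 CPM per kb in P0 and P7 controls, Itgav at 1.58 and 7.40, Itga4 at 0.528 and 4.72 and Itga8 at 1.52 and 4.12. Itga6 thus led at P0, with 32.6% of the summed alpha subunit level, and Itgav led at P7, with 26.6%. Among laminins, Lamc1, the most widely used gamma chain, stood at 11 and 9.31 CPM per kb and Lamb1 at 6.12 and 4.18. Lamc1 made up 91.7% of the summed gamma chain level at P0 and 91.5% at P7, and Lamb1 72.1% and 77.8% of the beta chains.

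**Figure D4:**
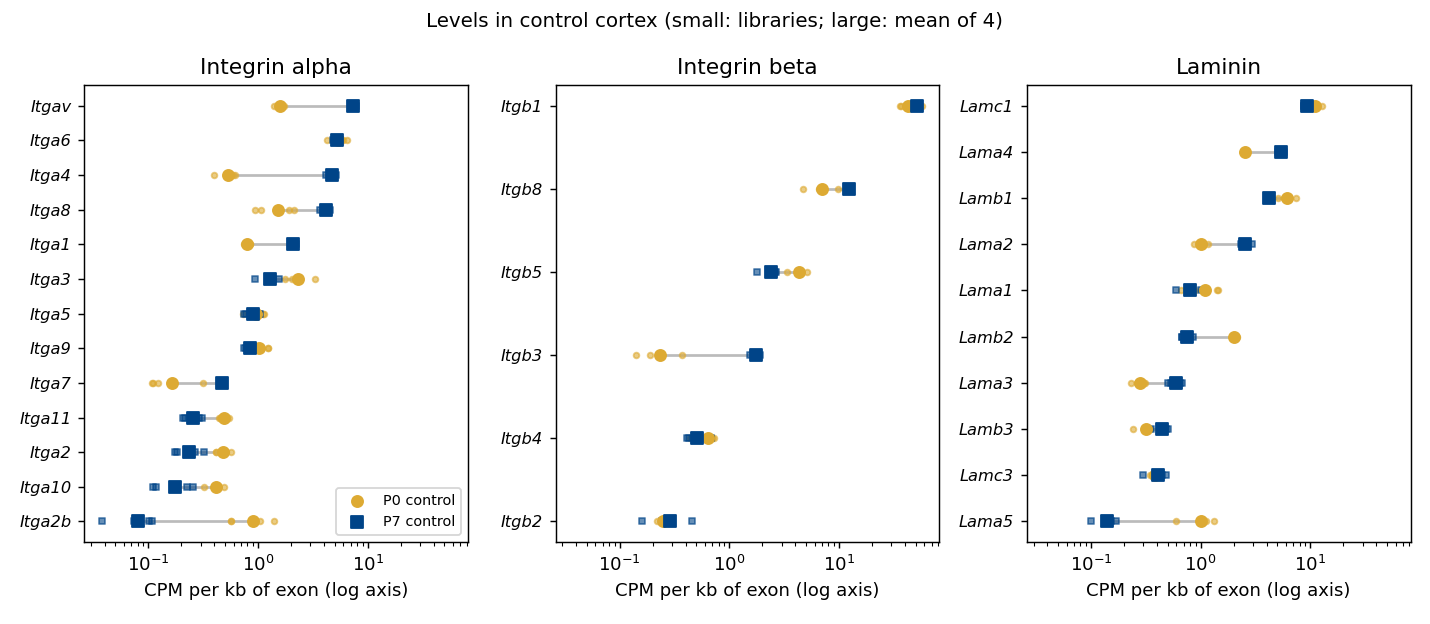
Level of the integrin and laminin genes reported in the 4 P0 and 4 P7 control libraries, in CPM per kb of exon on a log axis. Itgb1 is highest at both ages, at 42.6 and 51.5 CPM per kb, and Itga4 goes from 0.528 to 4.72.

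Between P7 and P0 controls, 22 of 29 genes tested were called, 12 higher and 10 lower, where 82.5% of all genes tested were called (35.1% higher and 47.3% lower). These differences hold both age and platform. The median over all genes was -0.19 log2, so each called value is also given relative to that median. The largest increases were in Itga4, Itgb3 and Itgav. Itga4, whose product binds fibronectin and VCAM1, had 8.23, 5.54, 7.18 and 8.58 CPM in the P0 controls and 66.7, 71.9, 67.3 and 58.0 CPM in the P7 controls. The groups were far apart, and the mean rose from 7.38 ± 1.36 to 66 ± 5.77 CPM (3.01 log2, or 3.20 relative to the median gene). The antisense gene Cerkl overlaps 8.04% of the Itga4 exon bases.

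Itgav had 14.9, 18.7, 16.7 and 17.4 CPM in the P0 controls, against the 75.2 to 84.5 CPM of the P7 controls. It rose by 2.17 log2 (2.36 relative to the median gene). Itgb3 rose by 2.29 log2 (2.47 relative), from a mean of 1.38 to 10.4 CPM. The 3 genes thus rose in every P7 control over every P0 control. In the cKO group Itgav had 16.5, 15.9, 15.7 and 15.5 CPM at P0. Itga4 had 7.52, 8.36, 7.25 and 7.47 CPM at P0 and 69.6, 69.95, 86.2 and 67.4 CPM at P7 in cKO. Neither gene was called between genotypes at either age. The antisense gene Gm13684 overlaps 5.9% of the Itgav exon bases.

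The upstream sequence of Itga4 and Itgav is printed because these genes had the largest increases between ages among those in the table of promoters. The sequences are RefSeq's (GRCm38.p6), the 250 bases before the gene start, 5′ to 3′ on the plus strand, at chr2:79255176-79255425 for Itga4 and chr2:83724147-83724396 for Itgav. Capitals mark TAAACA, the reverse complement of the forkhead core motif.
Itga4: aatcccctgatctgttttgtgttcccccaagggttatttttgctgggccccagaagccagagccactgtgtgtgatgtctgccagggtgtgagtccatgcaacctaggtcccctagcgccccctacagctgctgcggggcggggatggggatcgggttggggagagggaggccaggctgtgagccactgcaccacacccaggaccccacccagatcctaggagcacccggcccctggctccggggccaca
Itgav: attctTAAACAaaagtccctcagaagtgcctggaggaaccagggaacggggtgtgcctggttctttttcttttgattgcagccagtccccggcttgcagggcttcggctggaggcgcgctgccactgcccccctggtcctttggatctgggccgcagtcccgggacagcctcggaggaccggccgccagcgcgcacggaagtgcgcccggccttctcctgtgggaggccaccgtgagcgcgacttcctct

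The table of promoters matched 21 of the 32 genes, with 24 windows in all. Itgb3 and Itgb4 had no window, and the Itgb8 window lay wholly within exons. All windows were searched on both strands for the forkhead motif TGTTTAC. They were also searched for the shorter core TGTTTA, whose matches include those of the longer motif. The longer motif was in 0 of 24 windows and in 3.17% of all 32851 windows of that length. The core was in 3 of 24 windows (12.5%), those of Itgav, Itgb6 and Lamb3, and in 12% of all windows. A match is a description of the letters and no binding site.

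Of the collagen-binding subunits, Itga1 had 15.6, 14.4, 13.9 and 15.7 CPM in P0 controls and 12.2, 12.1, 14.1 and 15.1 CPM in P0 cKO. The P7 values were 38.5, 37.8, 38.5 and 41.1 CPM in control and 39.6, 35.5, 41.2 and 35.2 CPM in cKO. Genotypes overlapped at both ages while the ages were apart, with a rise of 1.33 log2 in controls (1.52 relative to the median gene). Itga2, Itga10 and Itga11 were all low, and all fell between ages in controls.

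Itga2 stood at 3.39 ± 0.540 in control and 2.56 ± 0.601 CPM in cKO at P0, and at 1.69 ± 0.500 and 2.30 ± 0.535 CPM at P7 (-0.72 log2 between ages in controls, -0.53 relative). Itga10 stood at 2.13 ± 0.369 and 2.19 ± 0.139 CPM at P0, and at 0.916 ± 0.380 and 1.30 ± 0.191 CPM at P7 (-0.72, -0.53 relative). Itga11 stood at 2.50 ± 0.247 and 1.91 ± 0.322 CPM at P0, and at 1.31 ± 0.265 and 1.18 ± 0.225 CPM at P7 (-0.61, -0.42 relative). Of Itga10's exon bases, 33.5% are shared with Gm42957 on the same strand, so its level is uncertain.

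Of the laminin-binding subunits, Itga6 had 58.8, 43.9, 38.5 and 53.4 CPM in P0 controls and 42.2, 34.9, 35.3 and 41.2 CPM in P0 cKO. In P7 libraries it reached 43.7, 50.6, 49.3 and 45.6 CPM in control and 42.8, 47.4, 47.7 and 45 CPM in cKO. Genotypes overlapped at both ages, while the P0 cKO libraries all lay under the P7 libraries, and Itga6 was not called at P0 (-0.32 log2, limma adjusted p = 0.253), at P7 or between ages. Itga3 fell between ages, from 13.2 ± 3.79 to 7.27 ± 1.46 CPM in controls (-0.76 log2, -0.58 relative), with 16.1 ± 2.76 and 7.03 ± 1.35 CPM in cKO. Itga7, better known from muscle, rose from 1.33 ± 0.823 to 3.81 ± 0.130 CPM in controls (1.10 log2, 1.29 relative), with 0.761 ± 0.138 and 4.74 ± 1.40 CPM in cKO. It entered the test through its P7 level, and its P0 control mean includes 2.56 CPM in control 6 (others 0.878 to 0.995).

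Among the other RGD-binding subunits, Itga8 rose from 11.2 ± 4.38 to 30.4 ± 2.62 CPM in controls (1.44 log2, 1.62 relative), with 7.41 ± 0.595 and 37.2 ± 3.34 CPM in cKO. Itga2b fell from 4.89 ± 2.24 to 0.437 ± 0.173 CPM (-1.97 log2, -1.78 relative), with 3.37 ± 0.854 and 0.397 ± 0.368 CPM in cKO. It entered the test through its P0 level. Itga5, the classical fibronectin receptor subunit, was not called between ages and stood at 4.73 ± 0.940 and 4.42 ± 0.783 CPM in P0 and P7 controls, with 4.30 ± 0.605 and 4.65 ± 1.41 CPM in cKO. Itga9, whose product binds tenascin-C, was grouped with Itga4 and not with the RGD-binding subunits. Itga9 was not called between ages either, at 7.87 ± 1.8 and 6.46 ± 0.782 CPM in controls and 6.46 ± 1.29 and 7.79 ± 1.38 CPM in cKO.

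Among the beta subunits, Itgb8 rose from 77.2 ± 23.3 to 135 ± 5.99 CPM in controls (0.84 log2, 1.03 relative) and Itgb1 from 173.9 ± 39.6 to 210.4 ± 4.95 CPM (0.30 log2, 0.49 relative). The Itgb1 ranges overlapped between ages, since P0 control 2 exceeded every P7 control, and its call was lost without P0 control 1 (limma adjusted p = 0.0513) or 6 (0.0503). Itgb5 fell from 15.3 ± 2.52 to 8.60 ± 1.46 CPM (-0.77 log2, -0.58 relative), with 16 ± 1.87 and 8.59 ± 1.76 CPM in cKO. Itgb4 was not called between ages. Itgb2, the beta 2 subunit gene of leukocyte integrins, was too low for the test. It had 0.768, 0.664, 0.774 and 0.835 CPM in P0 controls and 0.83, 0.83, 0.775 and 0.664 CPM in P0 cKO. The later levels were 0.750, 0.888, 0.486 and 1.38 CPM in control and 0.652, 0.504, 0.895 and 0.811 CPM in cKO, and all 4 groups overlapped.

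The laminin alpha chains moved in opposite directions. Lama4 had the P0 levels given above and, at P7, 62.4, 69.2, 61.4 and 68.6 CPM in control and 66.6, 58.8, 61.2 and 61.4 CPM in cKO. Every P7 library exceeded every P0 library, and the control mean rose from 30.4 ± 0.925 to 65.4 ± 4.06 CPM (1.08 log2, 1.27 relative to the median gene). Lama2, the chain whose loss causes a muscular dystrophy in mouse, rose from 16.6 ± 1.98 to 41.2 ± 4.45 CPM (1.26, 1.45 relative), with 21.0 ± 3.13 and 44.4 ± 6.12 CPM in cKO. Lama3, the alpha chain gene of epithelial laminin, rose from 3.0 ± 0.411 to 6.36 ± 0.886 CPM (0.88, 1.07 relative), with 2.79 ± 0.261 and 7.39 ± 1.08 CPM in cKO.

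Lama5 went the other way and fell from 11.4 ± 3.43 to 1.60 ± 0.343 CPM in controls (-2.22 log2, -2.03 relative), with 7.54 ± 1.68 and 2.21 ± 0.559 CPM in cKO. Lama1 was not called (-0.38 log2, limma adjusted p = 0.0712), at 10.7 ± 3.79 and 7.69 ± 1.63 CPM in controls and 6.51 ± 1.10 and 9.15 ± 0.559 CPM in cKO. Without P0 controls 2 and 6 the age difference of Lama1 was 0.02 log2 and that of Lama5 -1.93 log2. Of the summed alpha chain level per kb in controls, Lama4 made up 42.8% at P0 and 57.3% at P7, Lama2 17.5% and 26.6%, Lama1 18.3% and 8.40%, and Lama5 16.7% and 1.49%.

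Of the beta chains, Lamb1 had 73.7, 50.2, 61.3 and 57.7 CPM in P0 controls and 61.5, 61.5, 53.1 and 63.2 CPM in P0 cKO. The P7 libraries gave 41.8, 41.5, 40.9 and 41.7 CPM in control and 50.5, 51.2, 42.4 and 49.7 CPM in cKO. In controls the ages were apart, and it fell by 0.52 log2 (-0.34 relative to the median gene). Lamb2, a chain of synaptic and vascular laminins, fell from 12.3 ± 0.671 to 4.53 ± 0.549 CPM (-1.26 log2, -1.08 relative), with 11.2 ± 0.836 and 4.53 ± 0.792 CPM in cKO. Lamb3, another chain of epithelial laminin, was higher at P7, at 2.09 ± 0.321 and 2.97 ± 0.435 CPM in controls (0.36 log2, 0.55 relative), with 2.16 ± 0.489 and 2.66 ± 0.321 CPM in cKO, a call lost in 4 settings.

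Of the gamma chains, Lamc1 had 77.4, 105, 95.4 and 86.9 CPM in P0 controls and 78.5, 70.6, 87.8 and 83.5 CPM in P0 cKO. At P7 the levels were 72.8, 84.0, 72.7 and 78.6 CPM in control and 80.0, 85.2, 69.1 and 71.4 CPM in cKO. The ranges overlapped, and Lamc1 was called between ages at -0.23 log2. Relative to the median gene it stood at -0.05, and with medians-of-ratios scaling at -0.02 (adjusted p = 0.872). Lamc3, the gamma 3 chain gene, was not called, at 2.34 ± 0.231 and 2.51 ± 0.491 CPM in controls and 2.48 ± 0.322 and 3.04 ± 0.796 CPM in cKO.

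Over the same control libraries, meningeal markers summed to 8.953 to 13.09 CPM in P0 controls and 185.8 to 268.1 CPM in P7 controls, and endothelial markers to 123.1 to 144.7 and 211.6 to 227.3 CPM. Of the 7 endothelial markers, limma called 5 higher and 1 lower between ages, and the control mean of Cldn5 fell from 17.94 to 5.096 CPM. Astrocyte markers summed to 153.4 to 193 CPM in P0 controls and 2646 to 2948 CPM in P7 controls. Of the 5 astrocyte markers, limma called 4 higher and 1 lower between ages. The control mean of Slc1a2 rose from 105.1 to 2120 CPM, while that of Aldh1l1 fell from 42 to 33.94 CPM. Microglial markers summed to 23.86 to 26.66 and 69.96 to 80.68 CPM, and radial glia markers to 535.8 to 591.3 and 1074 to 1108 CPM. Of the 5 radial glia markers, limma called 1 higher and 2 lower between ages. The control mean of Slc1a3 rose from 245.2 to 849.1 CPM, while Pax6 fell from 67.27 to 12.63 CPM. Hes5, Fabp7 and Hopx were also lower at P7. Of the 6 microglial markers, limma called 2 higher and 1 lower, and P2ry12 went from a control mean of 0 to 40.2 CPM. Mural cell markers summed to 177 to 209.5 and 329.5 to 341 CPM, and excitatory neuron markers, which were lower in sum at P7, to 2814 to 3542 and 1100 to 1303 CPM. Of the 5 excitatory neuron markers, limma called 1 higher and 4 lower between ages, and the control mean of Slc17a7 rose from 41.04 to 92.4 CPM. Of the 7 mural cell markers, limma called 3 higher and 4 lower between ages, with a median of -0.68 log2. The control mean of Rgs5 rose from 109.3 to 272.5 CPM, while that of Pdgfrb fell from 31.82 to 13.54 CPM. The part of all these cell types in the age differences of integrin and laminin genes was not tested.

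**Figure D5:**
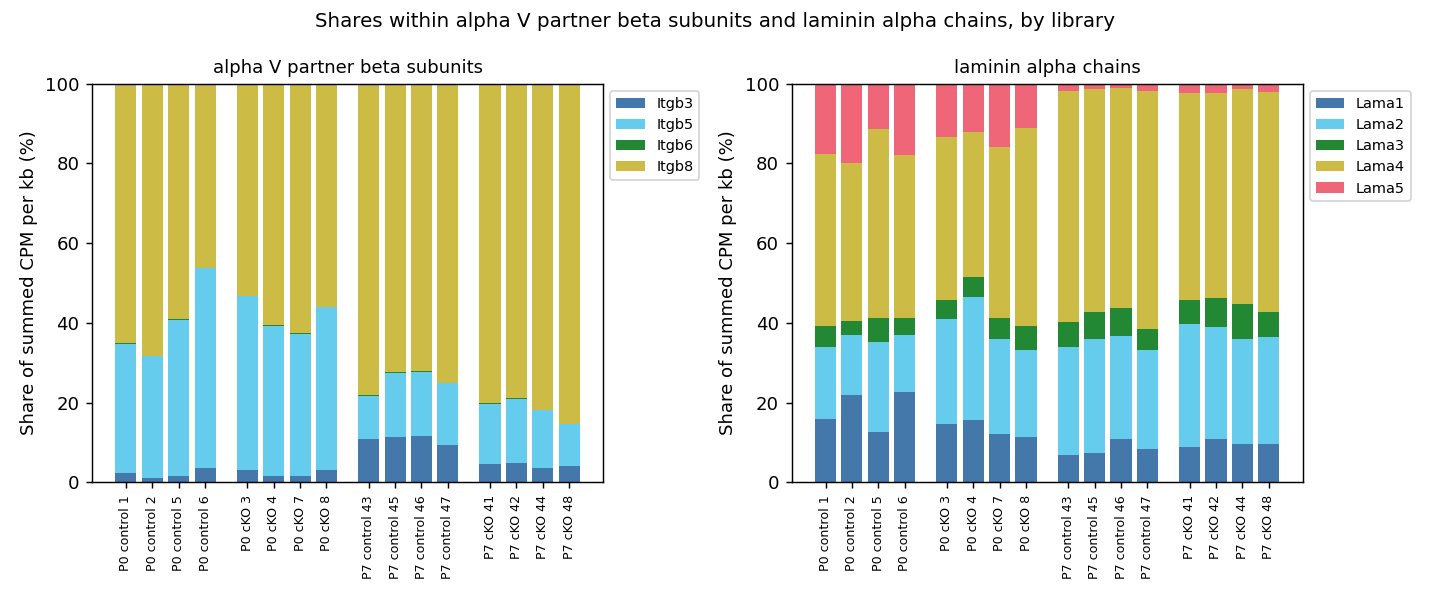
Share of each gene in the summed CPM per kb of exon of the alpha V partner beta subunits (without Itgb1) and of the laminin alpha chains, in percent, as 1 stacked bar per library. As group means, Itgb3 goes from 10.7% in P7 controls to 4.32% in P7 cKO, and Lama5 goes from 16.7% in P0 controls to 1.49% in P7 controls.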

How the data were processed

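The authors deposited CPM values, read counts per gene scaled to the library total. The name of the deposit carries NO_XY, read here as genes of X and Y left out. All genes therefore means the genes deposited. STAR, HTSeq and edgeR, with the builds mm10 and GRCm38, are named per the submitters' processing notes, without versions or settings. Values came out as whole reads in 100% of cases, with a tolerance of 0.01 read, and these recovered counts summed to 95.9% to 96.6% of the library totals. Each age was fitted on its own with limma 3.58.1 (R 4.3.3) on log2(CPM + 1), with a trend of the spread with abundance. The added 1 CPM understates the change of low genes. Interaction and age effects came from 1 fit over 16 libraries. On recovered reads, edgeR 4.0.16 and DESeq2 1.42.0 were alternatives, beside other pseudocounts, filters, scalings and leaving out each library. The scripts were tested on simulated data. Coordinates and exon lengths came from GENCODE M21 (GRCm38).

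The members and lists were chosen with earlier results of these data known. Values per library are printed for genes called between genotypes or in the interaction and for leading genes of a role. Those of Itgb1, Itga8, Lama1, Lama4, Lama5 and Itga2b at P0 were added after their values were seen. Other genes were named only where called, at most 4 per list and comparison. The counts over the list take in 1 gene whose own values are not reported here.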

Additional observations from a re-analysis of the deposited data

Results flagged for a closer look

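In 120 groups of 4 libraries, 1 library lay far from the other 3 in 11 cases by Dixon's test at the 95% level, where chance gives about 1 in 20 groups. Values are in CPM.

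At P0, Itga7 stood at 2.56 in control 6 (others 0.878 to 0.995), Itgb4 at 3.05 in control 2 (4.84 to 5.10) and Lamb3 at 1.61 in control 2 (2.23 to 2.27). Itga2 stood at 1.66 in cKO library 3 (2.82 to 2.88) and Lamb1 at 53.1 in cKO library 7 (61.5 to 63.2).

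At P7, Itgb5 stood at 6.41 in control 43 (9.13 to 9.48) and at 5.98 in cKO library 48 (9.19 to 9.83), and Lama2 at 47.8 in control 45 (38.5 to 39.6). Itga4 stood at 86.2 in cKO library 44 (67.4 to 69.95), Itga10 at 1.01 in cKO library 48 (1.37 to 1.43) and Itgb4 at 2.02 in cKO library 41 (1.38 to 1.43). In Itgb4 the library that stood apart was the one nearest to the controls, and without it the difference was -0.91 log2.

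The genotype effect on Itgb3 differed between the P0 and P7 libraries, with an interaction of -1.22 log2 (limma adjusted p = 0.0185). This call was lost in 5 of 23 alternatives, and age and platform cannot be told apart.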

How the results depend on the processing

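Itgb3 and Itgb4 at P7 kept direction and call in 16 of 16 and 15 of 15 alternatives. Of 22 age calls, Itgb1 was lost without P0 control 1 or 6, Lamb3 in 4 settings and Lamc1 in 9, and none reversed. Genes called at P7 numbered 2 to 3 and at P0 0 with 1 library left out. The 1 interaction call, that of Itgb3, became 0 with a pseudocount of 0.1, edgeR or no filter. It also became 0 with a minimum mean of 5 CPM, where Itgb3 was not tested. The number of interaction calls was 2 with DESeq2 and 0 to 4 with 1 library left out (4 without P0 control 5, 0 without P0 cKO 3 or P7 control 46). The 22 age calls became 14 with a mean of at least 5 CPM, where fewer genes were tested, and 21 to 22 with 1 library left out.

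Over all genes, the 32 calls at P0 became 7 with no filter, 429 with DESeq2 (182 higher, 247 lower, against 23 and 9), 794 in 1 fit over 16 libraries, 118 without controls 2 and 6, and 4 to 136 with 1 library left out (97 and 136 without controls 1 and 5, 4, 9, 13 and 4 without cKO 3, 4, 7 and 8). The 477 at P7 became 175 in 1 fit and 281 to 496 with 1 left out (281 without control 46). The 101 interaction calls became 54 with no filter, 285 with DESeq2, 175 without P0 controls 2 and 6, and 45 to 361 with 1 left out (207 and 361 without P0 controls 1 and 5, 45 and 55 without P0 cKO 3 and 4, 66, 48, 47 and 49 without P7 controls 43, 45, 46 and 47, and 52, 65 and 52 without P7 cKO 41, 42 and 48), and the age calls, 11085, became 10827 to 11148. Scaling by medians of ratios moved the higher and lower calls at P7 from 214 and 263 to 155 and 305 (edgeR 162 and 301), and of the interaction from 41 and 60 to 33 and 76 (edgeR 31 and 72). The causes were not tested. Leaving out P0 controls 2 and 6 was chosen after seeing the data. The labels give no litter or pairing of libraries, so no paired analysis was run.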
